A study of Homo sapiens with 8 samples.

Results

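The RUNX1 locus was examined for binding of RUNX1 itself in HEL cells, a human erythroleukemia line. It was taken as the RUNX1 gene (chromosome 21, 34787801 to 35049302 on hg38, minus strand) with 50 kb on each side. A peak belonged to it when it overlapped that window of 361.502 kb, in any of 6 peak lists. By this rule the locus held 103 of the 89672 peaks in the 6 lists, and they merged into 29 of 33478 regions. Binding was measured by CUT&RUN, a method that sequences the DNA cut loose by a nuclease tethered to an antibody inside permeabilized cells. The libraries came from puromycin-selected lines transduced with HA-tagged RUNX1-4D, HA-tagged RUNX1-4A, HA-tagged wild-type RUNX1 (WT) or an empty vector, with 2 biological replicates each. By the usual naming of such mutants, 4D carries aspartate and 4A alanine in place of serine or threonine residues, and the labels do not say which residues. All libraries used an anti-HA antibody, so only the introduced protein was read, on top of the RUNX1 that HEL cells may make themselves. The empty vector line served the authors as the background for peak calling, and no list of its own was analysed. Peak lists hold no RNA values, so the identity of the cells could not be checked against marker genes here.

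RUNX1 is the DNA-binding subunit of core-binding factor and is needed for the emergence of blood stem cells and for megakaryocyte maturation. It is transcribed from a distal promoter, P1, which gives the long RUNX1c form, and a proximal promoter, P2, which gives RUNX1b and RUNX1a. RUNX1 is known to bind its own gene, and blood cells use an enhancer located between the 2 promoters. P1 was placed at the upper end of the gene (35049302), where the longest transcript starts on the minus strand, and P2 at the start in the RefSeq promoter table (34888699). The stretch between them measured 160.603 kb, and that from P2 to the 3′ end of the gene 100.898 kb. Exons and introns were not analysed here, so every region is placed by its distance from these starts. The introduced construct carries RUNX1 coding sequence, and whether reads from it add to peaks over coding exons was not tested.

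The promoter where the data can be set on sequence is P2, and its 250 bases before the start are shown because 5 libraries placed a summit inside them. They lie at chr21:34888700-34888949 on GRCh38.p14, are read 5′ to 3′ on the minus strand, and come from RefSeq. Capitals mark the 46 bases from the summit farthest from the start to the nearest.

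RUNX1 P2 promoter: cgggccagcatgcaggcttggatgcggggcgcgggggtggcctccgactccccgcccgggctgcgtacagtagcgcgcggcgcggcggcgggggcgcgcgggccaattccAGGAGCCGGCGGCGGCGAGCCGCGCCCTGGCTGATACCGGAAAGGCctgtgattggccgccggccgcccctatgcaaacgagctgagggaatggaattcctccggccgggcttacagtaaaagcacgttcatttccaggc

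The summit lay 140 bp before the P2 start in 4D replicate 1 and 113 bp before it in 4D replicate 2, 95 bp before it in 4A replicate 2, and 140 and 113 bp before it in WT replicates 1 and 2. The window was rich in G and C, at 71.2% against a median of 62.4% over the same 250 bases of 15842 protein-coding genes, and held 32 CG pairs against a median of 17. RUNX proteins recognise a short core sequence, and its form TGTGGT was on neither strand of the window, against 8.89% of all such promoters with it on either strand. The form TGCGGT was not there either, against 6.90% of promoters. The GATA factor sequence AGATAA was also not there, against 6.84% of promoters. These letters are thus not in this window, which says nothing more about the factors.

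The introduced RUNX1 was called at the locus in each library, and the number of peaks there followed the replicate number far more than the form of RUNX1. There were 9 and 27 peaks in 4D replicates 1 and 2, 8 and 27 in 4A, and 7 and 25 in WT. The replicate 2 lists were longer as a whole, with 21122 peaks in 4D, 24251 in 4A and 25911 in WT, against 5358, 6266 and 6764 in replicate 1. Replicate 2 had 3.94 (4D), 3.87 (4A) and 3.83 (WT) times as many peaks as replicate 1 over the whole list, and 3, 3.38 and 3.57 times as many at the locus. Read depth is unknown, since the lists hold no read totals, so a region absent from a list was not called and is not shown to be unbound.

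**Figure D1:**
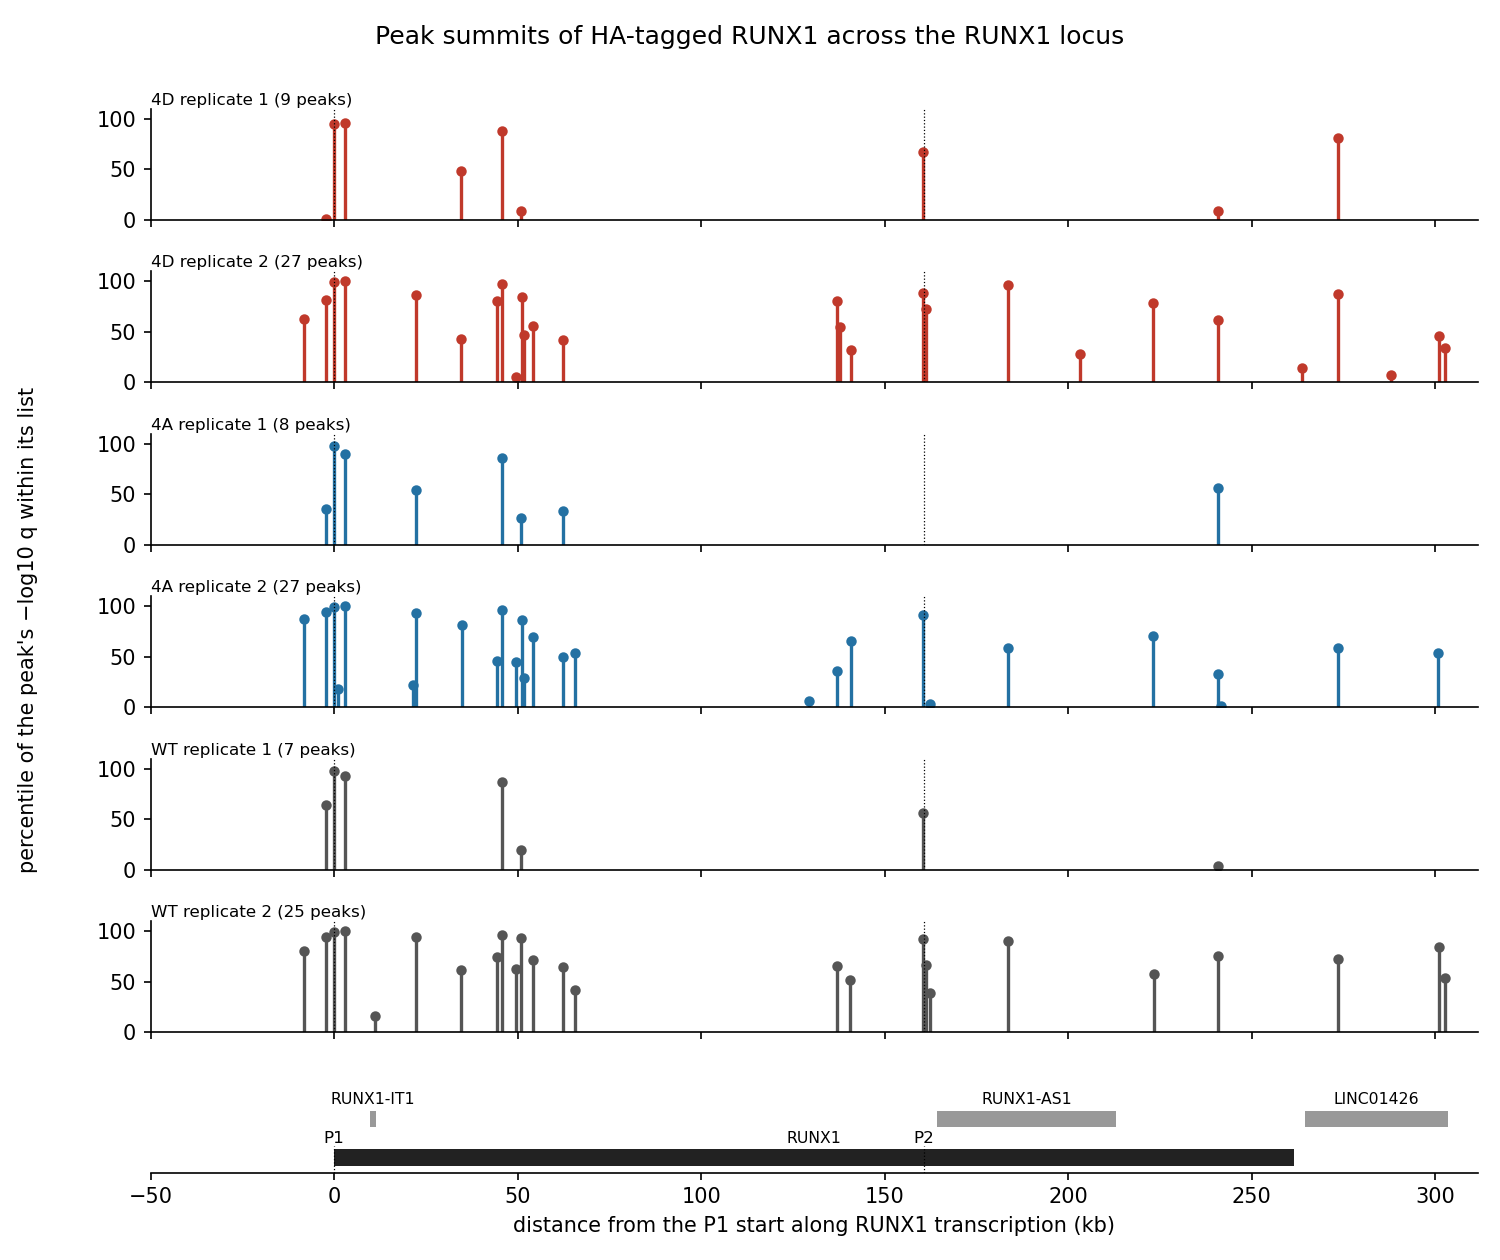
Peak summits at the RUNX1 locus in each of 6 libraries, by distance from the P1 start in kb along the direction of transcription (horizontal axis). The height of each line is the percentile of the peak's −log10 q within its own list, dotted lines mark P1 and P2, and the lowest panel shows RUNX1 and 3 non-coding genes. Summits gather near P1 and between 34.7 and 65.5 kb downstream of it, and a gap of 63.6 kb without a peak follows.

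The lines could not be separated by these numbers. The mean was 18 ± 12.7 peaks in 4D and 16 ± 12.7 in WT (SD, n = 2 each), a difference of 2 (two-sided exact permutation p = 0.667). It was 17.5 ± 13.4 in 4A against the same WT value, a difference of 1.5 (exact permutation p = 0.667), and 4D exceeded 4A by 0.5 (exact permutation p = 1). The SDs were several times the differences, and 2 libraries against 2 cannot give a p below 0.333. As a share of the list, the locus held 0.168% of peaks in 4D replicate 1 (95% Wilson interval 0.0884 to 0.319%) and 0.128% in 4D replicate 2 (0.0879 to 0.186%). The shares were 0.128% (0.0647 to 0.252%) and 0.111% (0.0765 to 0.162%) in 4A, and 0.103% (0.0501 to 0.213%) and 0.0965% (0.0654 to 0.142%) in WT. Both 4D shares were above both WT shares, and so were both 4A shares. A share depends on list length, however. Within each replicate number the 4D list was the shortest and the WT list the longest, the reverse of the order of the shares. In each line the longer replicate 2 list also had the lower share. How far list length sets these shares was not tested. The intervals, which cover counting error only, overlapped, and the exact permutation p was 0.333 for each pair of lines, the smallest possible. This share was chosen after the counts had been seen.

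Of the 29 regions, 6 were called in all 6 libraries, which is 20.7% of them against 9.84% of all regions in the series. A further 1 was called in 5 libraries, 4 in 4 libraries, 9 in 3, 3 in 2 and 6 in a single library. Each replicate 1 list called 9 (4D), 8 (4A) or 7 (WT) of them, against 15.6%, 18.3% and 19.6% of all regions. The replicate 2 lists called 25, 23 and 24, against 61.5%, 71% and 76.3%. All 3 replicate 2 lists shared 20 regions, 69.0% of the locus, against 45.6% of all regions. Of these, 9 were in no replicate 1 list. Any replicate 1 list held 11 of the 29, against 27.4% of all regions, and no region was in a replicate 1 list without being in a replicate 2 list. Regions called in 1 library only made up 20.7% of the locus and 34.5% of the series. No region was called in both libraries of one line and in neither library of another. Over the whole series such regions made up 0.114% (4D not WT), 0.206% (4A not WT), 0.314% (4D not 4A), 0.472% (WT not 4D), 0.269% (WT not 4A) and 0.669% (4A not 4D), so 0 of 29 is near the background. Both 4D libraries called 9 locus regions, both 4A libraries 8 and both WT libraries 7, which is the full content of each replicate 1 list there. In the series 14.8% (4D), 17% (4A) and 19.1% (WT) of regions were called in both libraries of the line, so the order at the locus ran opposite to that of the series, by differences of 1 region.

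The strongest locus peak of every list stood at or just inside the distal end of the gene. The region at P1 (chromosome 21, 35047974 to 35049636) had a −log10 q of 31.5 and 147 in 4D replicates 1 and 2, 58.5 and 172 in 4A, and 63.8 and 176 in WT. It ranked 243 and 115 in the 4D lists, 107 and 108 in the 4A lists, and 147 and 94 in the WT lists, so it lay in the top 5% of every list. Its fold enrichment over background, a linear ratio from the authors' file, was 13.2 and 19.6 in 4D, 16.7 and 18.4 in 4A, and 17.8 and 26.2 in WT. Its summit fell on the same base, 48 bp downstream of the P1 start, in 4 of the 6 libraries, and 41 bp downstream in 4D replicate 1 and 72 bp in WT replicate 1. The 6 summits spanned 31 bp, against a median span of 107 bp over the 3295 regions called in all libraries, of which 6.13% spanned no more.

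**Figure D2:**
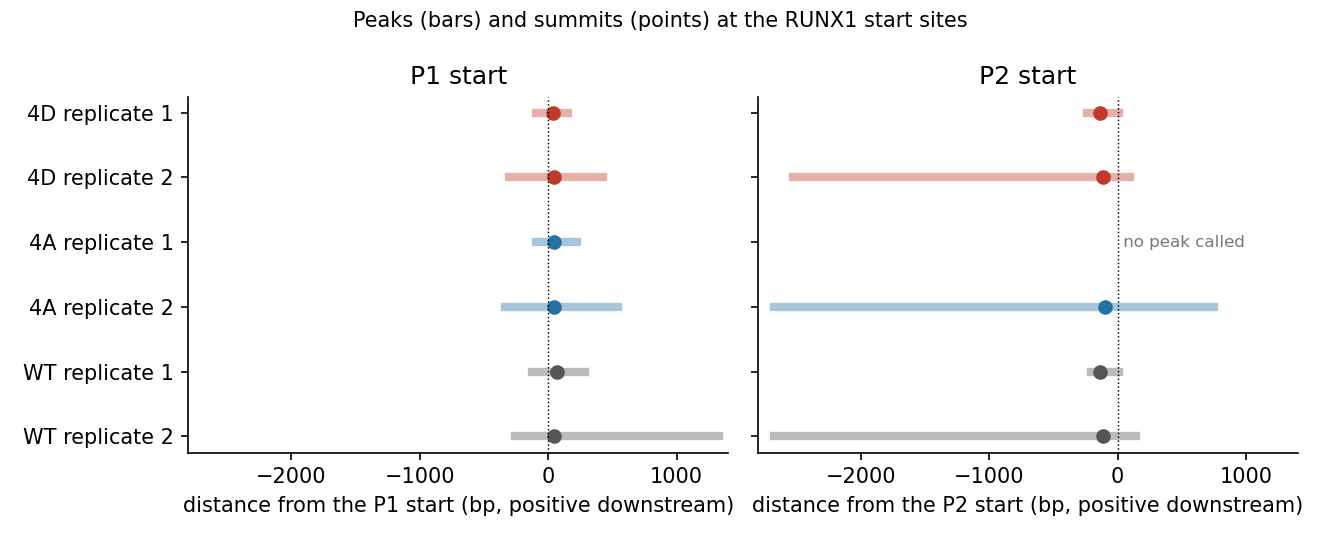
The peak nearest the start in each library (bars) and its summit (points), by distance in bp from the P1 start (left) and the P2 start (right), with positive values downstream. Second peaks are not drawn, namely those of 4D and WT replicate 2 downstream of P2 and of 4A replicate 2 downstream of P1. All 6 summits drawn at P1 lie between 41 and 72 bp downstream. The 5 drawn at P2 lie between 95 and 140 bp upstream, with no peak called in 4A replicate 1.

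A second region lay 2.91 kb downstream of P1 (chromosome 21, 35045777 to 35047268) and held the highest-ranked locus peak of the replicate 2 lists. Its −log10 q was 33.6 and 271 in 4D, 28.2 and 282 in 4A, and 40.3 and 262 in WT. The peak was number 7 of 21122 in 4D replicate 2, number 16 of 24251 in 4A replicate 2 and number 9 of 25911 in WT replicate 2. In replicate 1 it was number 199 in 4D, 627 in 4A and 460 in WT. It was the highest-ranked locus peak in 4D replicate 1 as well, whereas in 4A and WT replicate 1 that was the P1 peak. Fold enrichment was 11.04 and 26.7 in 4D, 6.58 and 22.1 in 4A, and 9.0 and 32.3 in WT.

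Another region lay 2.23 kb upstream of P1 (chromosome 21, 35051185 to 35051818) and was also called in all libraries. Its −log10 q was 1.49 and 28.5 in 4D, 6.23 and 62.4 in 4A, and 14.6 and 59.9 in WT. A percentile gives the place of a peak by −log10 q within its list, with tied peaks sharing their mean rank. For this region the percentiles were 1.14 and 81.8 in 4D, 35.3 and 94.2 in 4A, and 64.1 and 94.0 in WT. In replicate 1 these percentiles lay further apart than those of any other region called in all libraries. The 4D library was lowest within each replicate number, and its replicate 1 peak was near the bottom of its list. Further upstream, a region 8.31 kb from P1 (35057315 to 35057838) was called in the 3 replicate 2 lists, with summits within 3 bp of each other. Its −log10 q there was 14.8 in 4D, 38.3 in 4A and 28.1 in WT, and no peak was called in the 41.5 kb from there to the edge of the window.

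Between the promoters lay 15 of the 29 regions in 158.603 kb, leaving out 1 kb around each start, or 9.46 per 100 kb. The rate was 5.01 per 100 kb between P2 and the 3′ end, 10 beyond the 3′ end and 4.08 upstream of P1. These rates include regions called in a single library. Of the 5 regions beyond the 3′ end, 0 were called in all libraries and 2 in every replicate 2 list. Between the promoters these numbers were 3 and 11 of 15. Over all regions of the series the shares were 9.84% and 45.6%, so the numbers beyond the 3′ end are near the background. Within the P1 to P2 stretch, 3 regions lay within 30 kb of P1 and 8 between 34.7 and 65.5 kb downstream of it. The other 4 lay in the part next to P2, beyond a gap of 63.6 kb without a peak (34920111 to 34983702). The region 45.7 kb downstream of P1 (35003052 to 35003871) was called in all libraries, with percentiles close together within each replicate number. Its −log10 q was 21.0 and 96.5 in 4D, 23.5 and 79.0 in 4A, and 29.2 and 80.8 in WT, at percentiles of 88.3 and 97.9 in 4D, 86.3 and 96.3 in 4A, and 87.0 and 96.5 in WT. Here the 4D percentile was the highest within each replicate number. Fold enrichment ranged from 9.16 to 12.1, and the summits spanned 31 bp.

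A neighbouring region 51.1 kb downstream of P1 (34997373 to 34998495) was also called in all libraries, though weakly in replicate 1. Its −log10 q was 2.56 and 32.7 in 4D, 5.22 and 37.1 in 4A, and 5.02 and 55.3 in WT. The region 22.5 kb downstream of P1 (35026036 to 35027884) was called in 4 libraries, with a −log10 q of 36.5 in 4D replicate 2, 9.79 and 59.7 in 4A, and 62.5 in WT replicate 2. Coordinates of the known enhancer were not used here, so no region was matched to it. Another, 34.7 kb downstream (35014417 to 35014897), was called in both 4D libraries (7.52 and 8.50) and in replicate 2 of 4A (28.3) and of WT (14.6). Of these 2 regions, the replicate 1 list of 4D held the second, that of 4A the first and that of WT neither, with 1 library per line.

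The P2 region (34887930 to 34891376) was called in 5 libraries and was missing from 4A replicate 1. For the peak nearest the start, −log10 q was 11.0 and 40.3 in 4D, 50.1 in 4A replicate 2, and 12.2 and 53.8 in WT. Its percentile was 67.0 and 88.6 in 4D, 91.5 in 4A replicate 2, and 56.3 and 92.6 in WT, below the P1 region in each of these libraries. Peaks in replicate 2 were broad here, at 2629 bp in 4D, 3430 bp in 4A and 2818 bp in WT, and reached upstream of the start. These widths are not like for like, since 4D and WT replicate 2 each had a second peak downstream of the start. Its summit lay 546 bp (4D) and 640 bp (WT) downstream, with −log10 q of 20.4 and 17.0. The single 4A replicate 2 peak spanned both of these summit positions. A summit within 1 kb of the RefSeq start in at least 5 of 6 libraries was found at 12.4% of 15842 protein-coding genes. By library, that share was 11.5% and 33.2% in 4D, 12.5% and 37.8% in 4A, and 16% and 37.8% in WT.

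Between P2 and the 3′ end, 1 region was called in all libraries, 241 kb downstream of P1 and 20.7 kb before the end of the gene (34807491 to 34808724). Its −log10 q was 2.56 and 14.1 in 4D, 10.2 and 6.11 in 4A, and 2.63 and 23.1 in WT. The percentiles were mixed, at 9.30 and 61.5 in 4D, 56.8 and 32.6 in 4A, and 4.13 and 75.8 in WT. Unlike the other regions called in all libraries, it had a higher percentile in replicate 1 than in replicate 2 in 4A (56.8 and 32.6). Over RUNX1-AS1, a non-coding gene inside RUNX1, a region 23.0 kb downstream of P2 (34865428 to 34866144) was called in the replicate 2 lists, with −log10 q of 75.2 in 4D, 12.7 in 4A and 45.4 in WT. In 4D and WT replicate 2 this was the highest −log10 q of any locus region without a replicate 1 call, whereas in 4A replicate 2 others were higher, among them that 8.31 kb upstream of P1 (38.3). Beyond the 3′ end, over the non-coding gene LINC01426, a region 12.1 kb from the end of RUNX1 (34775576 to 34776106) was called in both 4D libraries (16.2 and 38.5) and in replicate 2 of 4A (12.8) and of WT (20.6). Of the 6 regions called in a single library, 4 came from 4D replicate 2, 1 from 4A replicate 2 and 1 from WT replicate 2. All had a −log10 q between 2.2 and 11.6. The same split by list was not counted over the series, so these numbers do not set 4D apart.

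**Figure D3:**
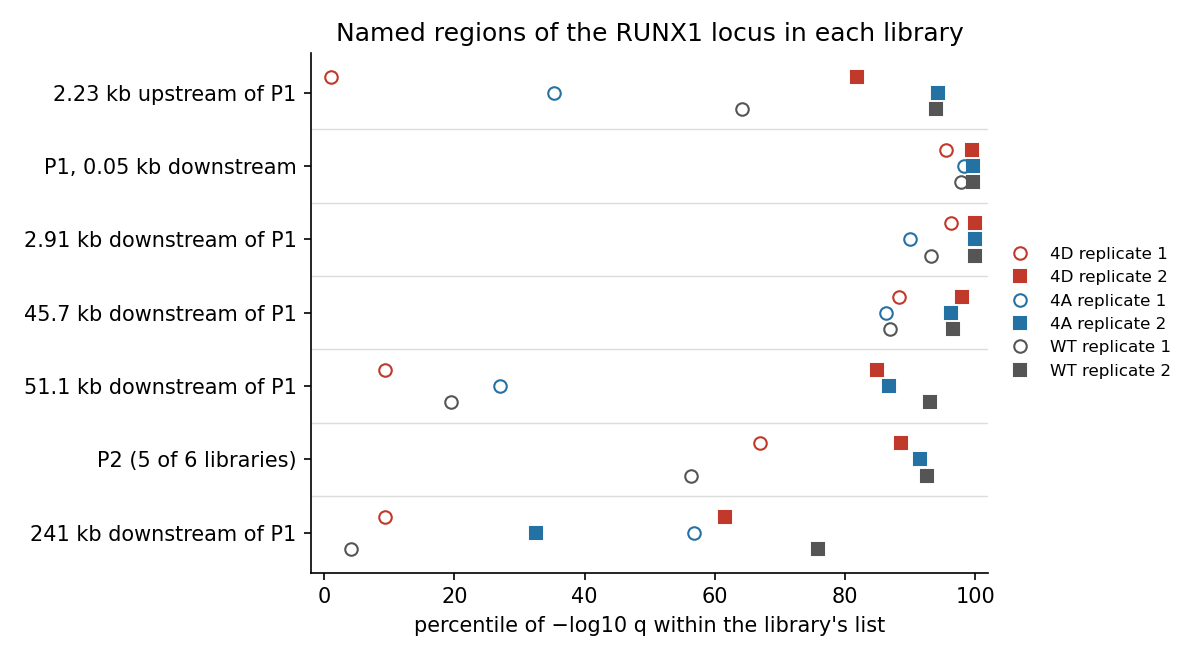
Percentile of −log10 q within each library's list (horizontal axis) for the 6 regions called in all libraries and the P2 region, ordered along the gene. Open circles are replicate 1 and filled squares replicate 2, with 4D in red, 4A in blue and WT in grey. At P1 and at 2.91 and 45.7 kb downstream all points lie above 86, whereas at the other regions replicate 1 lies far below replicate 2, except in 4A at 241 kb.

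Within the regions called in all libraries, no line stood consistently above another at the locus. The 4D percentile was below the WT one in both replicate numbers at 3 of 6 regions and above it at 2. In the series, 44.4% of the 3295 such regions were below and 14.2% above. The 4A percentile was below WT in both numbers at 2 of 6 and above at 0, with 29% and 18.5% in the series. The 4D percentile was below 4A in both numbers at 3 of 6 and above at 2, with 36.2% and 16.3% in the series. A percentile depends on list length, and within each replicate number the 4D list was the shortest and the WT list the longest. A peak of equal rank thus has a lower percentile in 4D, and how far this sets these shares was not tested. Over all locus peaks of a list, the median percentile was 67.0 and 63.2 in 4D, 55.7 and 58.8 in 4A, and 64.1 and 72.5 in WT, where a list as a whole has 50 by construction.

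Set against other genes by the same window, 1 of 20033 protein-coding genes had more regions called in all libraries than RUNX1, namely GSE1, which encodes a coiled-coil protein, with 7. A count of 6 was shared by 9 other genes, and 30.5% of genes had at least 1. Several of those 9 are short neighbours on chromosomes 1 and 19 whose windows hold the same regions. Among the 3356 genes of at least 100 kb the median count was 0 and 27.9% had at least 1. RUNX1, with 1.66 such regions per 100 kb of window, ranked 15 by rate among them. These positions depend on weak peaks. With only peaks of −log10 q of at least 5, RUNX1 kept 3 such regions, 93 genes had more and its rank by rate was 85.

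**Figure D4:**
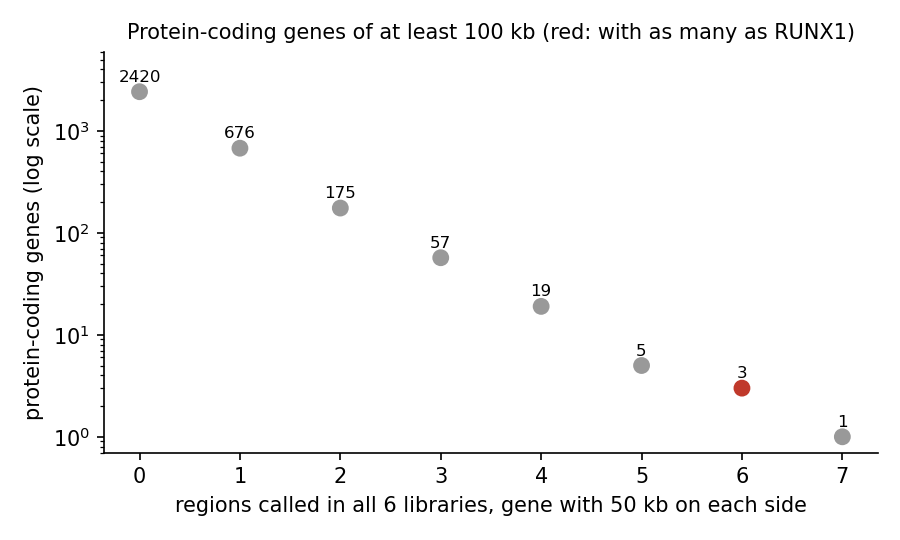
Number of protein-coding genes of at least 100 kb (vertical axis, log scale) by the number of regions called in all 6 libraries in the gene with 50 kb on each side (horizontal axis). RUNX1 is 1 of 3 genes with 6 such regions, shown in red, and 2420 genes have 0.

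The genes closest to RUNX1 in number of peaks, by the sum over the 6 lists of absolute differences, were IQSEC1 (a sum of 7), ZFPM1 (17), ITGA9 (20), ZMIZ1 (21) and GSE1 (22). In IQSEC1 there were 7 and 24 peaks in 4D, 8 and 26 in 4A, and 8 and 25 in WT. Among the other RUNX family genes and blood stem and progenitor factors examined, 9 of 12 had a region called in all libraries. The share over all protein-coding genes was 30.5%. Every window of the 12 but that of ERG was shorter than the RUNX1 window. The median was 1 region called in all libraries and the maximum 2. The 3 without one were RUNX2, which directs bone formation, GATA2, a factor of blood stem cells, and ERG, an ETS factor. In this group 11 genes had a region called in both 4D libraries, 10 in both 4A libraries and 11 in both WT libraries, against 39.2%, 42.7% and 46.9% of all protein-coding genes. By rate per 100 kb LYL1, a close relative of TAL1, was the 1 gene of the 12 above RUNX1, at 1.93. That rate rests on 2 regions in a window of 103.826 kb, nearly all of it the 50 kb flanks.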

How the data were processed

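The data were processed on hg38 with MACS2 2.2.7.1, deepTools 3.5.1, Picard 2.25.6, Bowtie2 2.4.2 and cutadapt 3.4, per the submitters' processing notes, which give no roles. The authors deposited a peak list for each of 6 libraries. Each deposited peak has a score, a fold enrichment (a linear ratio over background), a −log10 p-value and a −log10 q-value. Lowest in each list was a −log10 q between 1.30 and 1.41, close to q = 0.05. Read filters and any pooling of the background are not given in the sources used here. For comparisons between lines, −log10 q was turned into a percentile within each list. A common cut of −log10 q of at least 5 was used as an alternative.

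Only the numbered chromosomes and X and Y were used, which left out 61 peaks. Peaks overlapping by at least 1 bp were merged into regions, and a region's position is the summit of its strongest peak. Where a library had several peaks in a region, the strongest gives its value. Genes and promoter sequence came from RefSeq (GRCh38.p14). Peak numbers were compared with an exact permutation test, with other thresholds, list lengths, merging, flanks and a replicate block as alternatives. Python 3.11.15, pandas 2.3.3, NumPy 2.4.6, SciPy 1.17.1 and matplotlib 3.10.9 were used, and merging and counting were tested on simulated data. Regions called in all libraries, and those nearest each start, are named with full values, others as examples chosen after their values were seen. The locus and gene lists were chosen with earlier results of these data known.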

Additional observations from a re-analysis of the deposited data

How the results depend on the processing

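The mean number of peaks differed by 2 (4D minus WT), 1.5 (4A minus WT) and 0.5 (4D minus 4A) with the replicate number as a block (exact permutation p = 0.5, 0.5 and 1, the smallest possible being 0.5). The libraries share only the number. With a smallest possible p of 0.5 the block could change no call, so it is no check on the result. With only peaks of −log10 q of at least 5 all 3 differences were 0, and with lists shortened to the length of the shortest they were 3, 1 and 2 in the same order (exact permutation p = 0.667, 1 and 0.667). With 10 kb on each side of the gene 4D minus 4A reversed to -1, by the peaks between 10 and 50 kb from the gene, while 4D minus WT was 1 and 4A minus WT 2. Leaving out 1 replicate gave 2 to 2 (4D minus WT), 1 to 2 (4A minus WT) and 0 to 1 (4D minus 4A), with no test.

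The 6 regions called in all libraries became 3 with −log10 q of at least 5, and 4 with shortened lists (5358 peaks). Requiring only the lists of 1 replicate gave 6 to 20. Genes with more such regions than RUNX1 numbered 93, 11 and 0 with −log10 q of at least 5, shortened lists and merged windows of 100 bp around summits, and 1 to 1 without 1 replicate. The rank by rate was 85 with −log10 q of at least 5, 33 with shortened lists, 9 with 10 kb flanks, and 3 to 15 without 1 replicate. Of the 7 named regions, 4 kept their number of libraries with −log10 q of at least 5, 5 with shortened lists and all 7 with summit windows. The region 241 kb from P1 was left in 2 libraries by shortened lists. Read depth and exons set the limits of these data, since neither was analysed here.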
